A study of Mus musculus with 22 samples.

Results

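The hypothalamus of mice that had carried a Lewis lung carcinoma for 17 days was compared with that of mice that had carried it for 10 days, a contrast between an earlier and a later stage of the same tumour that uses no control animal. Its members are the arrays labelled tumour-bearing of day 17 (6 mice) and of day 10 (5 mice), 11 of the 22 arrays of the study, and all 18820 genes with a probe set of their own were tested. The study measured gene expression on Affymetrix arrays, 1 array per mouse. The remaining 11 arrays, from 7 tumour-bearing mice of day 14 and 4 control mice of day 14, entered the difference only through the estimate of the spread and the choice of probe set for genes with several, and their levels are given where they place a value.

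All mice were males of the C57BL/6 strain, housed singly and fed freely on a diet of the AIN93M formulation, and their age is not given in the labels used here. Lewis lung carcinoma is a transplantable tumour of this strain. Both groups received tumour cells, taken from growing tumours, by intramuscular injection in a hind leg under anaesthesia. The hypothalamus was removed under ketamine and xylazine, so every mouse received these agents too, and the labels do not say what was injected into the controls. There were no tumour-free mice of day 10 or day 17, so the length of tumour growth cannot be told apart from any difference in age between the groups. Body weight, food intake and tumour size of single mice were not analysed here. In whole tissue, fewer cells of a type and less RNA per cell cannot be told apart, and this holds for every value below.

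The hypothalamus holds the neurons that set hunger, body temperature and hormone release, and it reads signals of inflammation and energy stores from the blood. Neuropeptide Y neurons of the arcuate nucleus drive feeding and proopiomelanocortin neurons restrain it. A growing tumour can bring on loss of appetite and wasting (cachexia), with cytokines, glucocorticoids and anaemia as known companions. The contrast asks which genes of this tissue differ between an earlier and a later stage of that course.

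Values are log2 RMA values, so a difference of 1 is a doubling, and each difference is the mean of day 17 minus the mean of day 10 with its standard error (SE). Array medians lay between 5.27 and 5.34, and correlations among the 11 arrays lay between 0.981 and 0.995. The median correlation was 0.989 within groups and 0.989 between them. All 15 hypothalamus markers measured were above the background level of 3.87, the 95th percentile of odorant and pheromone receptor probe sets. Their list mean ran from 7.25 to 7.53 on day 10 and from 7.27 to 7.55 on day 17. The mean of 15 thalamus markers ran from 6.66 to 7.02 and from 6.64 to 7.19, that of 9 striatum and cortex markers from 6.22 to 6.68 and from 6.13 to 6.44, and that of 9 pituitary markers, 4 of them below background, from 3.98 to 4.55 and from 3.97 to 4.86. The ranges of the 2 groups overlapped in each of these lists. In the controls the thalamus list mean ran from 6.66 to 7.72. It averaged 7.11 there, against 6.74 on day 10 and 6.76 on day 17. The part of dissection in the differences from the controls given below was not tested.

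The differences were small and none passed the test. With limma, 0 of 18820 genes (0%) had a Benjamini-Hochberg adjusted p below 0.05, and the smallest adjusted p, of Oacyl, was 0.0820. At an unadjusted p below 0.05 there were 1562 genes (8.30%), where that threshold alone gives 941. Of these, 579 (3.08% of all genes) had the higher mean on day 17 and 983 (5.22%) the lower one. In 51 genes (0.271%) every day 17 mouse lay above every day 10 mouse, and in 98 genes (0.521%) every one lay below. The median difference over all genes was -0.01, the median size of a difference was 0.06, and 43 genes differed by more than 0.5 in either direction. The 4 that differed by more than 1 were Alas2, Slc4a1 and Tent5c, described below, and Bpifa1 (1.10 ± 0.51), whose mean over all arrays was below background; the last was chosen after its value was seen. The higher mean was on day 17 in 8178 genes (43.5%) and on day 10 in 10642 (56.5%). For scale, day 14 against day 10 gave 1 gene at an adjusted p below 0.05 (0.00531%) and 1341 at the unadjusted threshold (7.13%), and day 17 against day 14 gave 0 and 785 (4.17%). The gene of day 14 was Nr4a3, an orphan nuclear receptor (-0.67 ± 0.09, adjusted p 0.00369 by limma), which differed by -0.28 ± 0.09 on day 17. Because no gene passed, every gene and list below is given as a measured difference and not as a call. One mouse bore strongly on the count: without day 17 replicate 6, 12 genes passed, Oacyl, Tfrc, Rbm3 and Cirbp among them. Without day 10 replicate 4, 2 genes passed, Oacyl and Tfrc.

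**Figure D1:**
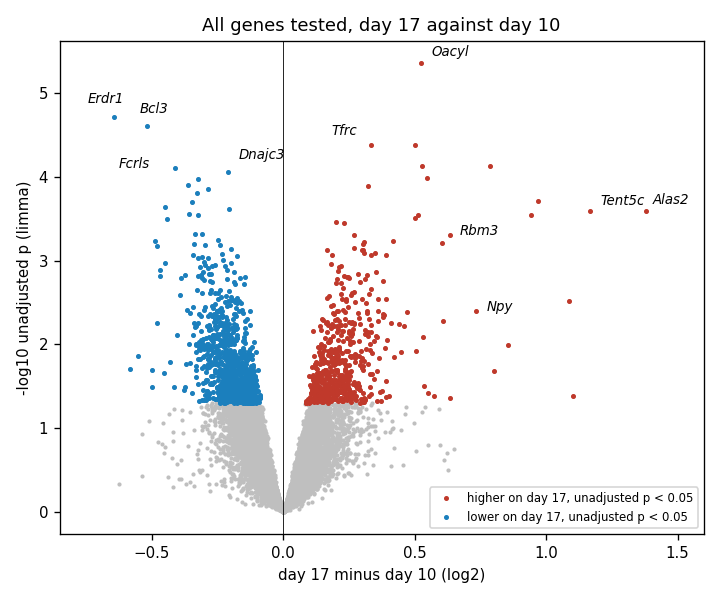
Each point is 1 of 18820 genes, with the log2 difference of day 17 minus day 10 on the horizontal axis and -log10 of the unadjusted limma p on the vertical axis; red and blue points have an unadjusted p below 0.05. Points on the lower side (983) outnumber those on the higher side (579), and the gene farthest to the right is Alas2 at 1.38.

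The gene with the smallest p was Oacyl (probe set 10456329), an O-acyltransferase-like gene. Its values on day 10 were 4.66, 4.57, 4.74, 4.82 and 4.62, and on day 17 the lowest, median and highest were 4.93, 5.11 and 5.51. The groups did not overlap. The difference was 0.53 ± 0.09 (SE), a ratio of 1.44, with an adjusted p of 0.0820 by limma. The control mean was 5.11, so the value that stood apart from the controls was that of day 10 (-0.42 ± 0.10 against controls) and not that of day 17 (0.10 ± 0.09).

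Tfrc (probe set 10435075), the transferrin receptor that takes up iron, stood next on the higher side. It read 7.85, 7.96, 7.79, 8.13 and 7.88 on day 10 and 8.09, 8.27 and 8.37 (lowest, median, highest) on day 17, and only the highest day 10 mouse and the lowest day 17 mouse crossed. The difference was 0.33 ± 0.07, with an adjusted p of 0.156 by limma. Here day 10 lay near the control mean of 7.85 and day 17 lay 0.41 ± 0.07 above it. Apoc1, a small apolipoprotein of lipid-carrying particles, read 6.19, 6.40, 6.57, 6.27 and 6.12 on day 10 and 6.64, 6.81 and 7.07 on day 17, without overlap. Its difference was 0.51 ± 0.12 (adjusted p 0.217 by limma).

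On the lower side stood Bcl3 (probe set 10560685), an atypical IκB protein that works with NF-κB and is known to be induced in inflammation. It read 4.89, 4.62, 4.57, 4.73 and 4.84 on day 10 and 3.96, 4.25 and 4.40 on day 17, without overlap, a difference of -0.52 ± 0.10 (adjusted p 0.156 by limma). The control mean was 4.21, so Bcl3 lay 0.52 ± 0.11 above the controls on day 10 and 0.01 ± 0.10 above them on day 17. Klf10, a transcription factor induced by TGF-β, lay 0.22 ± 0.09 above the controls on day 10 and at -0.12 ± 0.08 from them on day 17, a difference between the days of -0.35 ± 0.08. Erdr1 (probe set 10608711) had the most negative difference of all genes, -0.64 ± 0.12 (adjusted p 0.156 by limma). Its values were 8.67, 9.21, 9.18, 8.89 and 9.19 on day 10 and 8.03, 8.41 and 8.70 on day 17, with 1 mouse of day 10, replicate 1, inside the day 17 range.

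By the rule for named genes, 15 genes were taken on each side. The groups did not overlap in 5 of the 15 higher genes and in 12 of the 15 lower genes, counts that the choice by smallest p favours. Beside those above, the higher genes were Arhgef33 (0.50 ± 0.10), Ovgp1 (0.53 ± 0.11), Slc22a21 (0.32), Acr (0.50), Phka2 (0.20), Plaat1 (0.23) and Cdkl3 (0.27), together with the red cell, interferon-responsive and cold-inducible genes below. The lower genes included Magt1 (-0.32), a subunit of the complex that attaches sugars to proteins in the endoplasmic reticulum, Lman2l (-0.33), a lectin that carries glycoproteins out of it, and Plod1 (-0.32), a lysine hydroxylase of collagen. They also included Gamt (-0.36), which makes creatine, Padi2 (-0.44), a peptidylarginine deiminase rich in oligodendrocytes, Hes5 (-0.33), a target of Notch, and Leng1 (-0.36), Inava (-0.29) and Serf2 (-0.21). The day 14 mean lay between those of day 10 and day 17 in all 15 higher genes and in 14 of the 15 lower ones, Hes5 being the exception; these genes were chosen for distant end points.

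**Figure D2:**
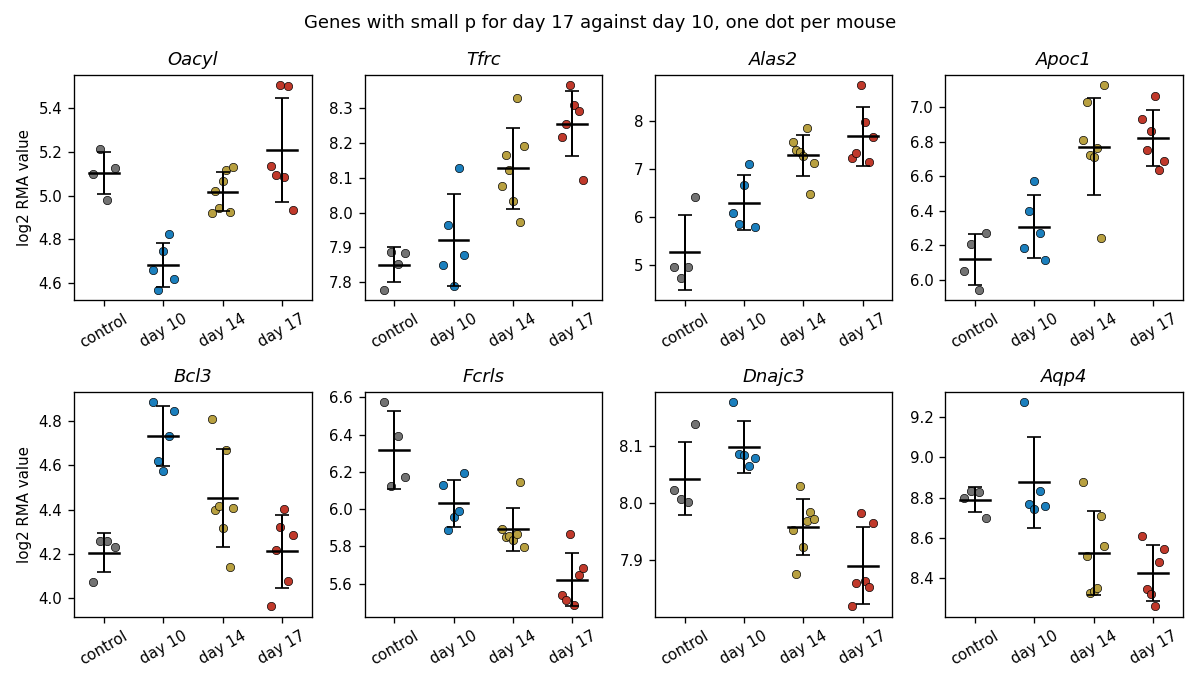
Dots are single mice and bars the mean ± SD of the log2 RMA value in controls of day 14 (n = 4) and tumour-bearing mice of days 10 (n = 5), 14 (n = 7) and 17 (n = 6), for 8 of the genes with the smallest p. Oacyl, Alas2 and Apoc1 show no overlap between days 10 and 17 on the higher side, nor do Bcl3, Fcrls, Dnajc3 and Aqp4 on the lower side.

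Markers of red cells had higher means on day 17, and 1 of them had the largest difference of all genes. Alas2 (probe set 10602372), the haem synthesis enzyme of red cell precursors, read 6.10, 5.85, 6.68, 7.10 and 5.80 on day 10 and 7.14, 7.50 and 8.75 on day 17. The groups did not overlap, though day 10 replicate 4 came close to the lowest day 17 mouse, and the difference was 1.38 ± 0.32, a ratio of 2.60 (adjusted p 0.217 by limma). Slc4a1, which encodes the band 3 bicarbonate and chloride exchanger, read 5.15, 5.11, 5.20, 6.51 and 5.24 on day 10 and 6.07, 6.28 and 7.72 on day 17, a difference of 1.09 ± 0.33 (adjusted p 0.407). Day 10 replicate 4 was inside the day 17 range and stood apart from its own group. Of 5 red cell markers measured, 4 had the higher mean on day 17 and all 4 had an unadjusted p below 0.05, against 3.08% of all genes, with a list median of 0.27. The 4 were Alas2, Slc4a1, Epb42 (0.27) and Rhag (0.27), and 3 of the 5 markers lay below the background level. The globin genes were not analysed here.

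A further 3 genes with large differences were highest in the same mice, as was Tfrc, given above (8.13 in day 10 replicate 4 and 8.37 in day 17 replicate 3). Tent5c, a poly(A) polymerase, read 5.76, 5.24, 5.97, 6.65 and 5.43 on day 10 and 6.42, 6.82 and 7.96 on day 17, a difference of 1.17 ± 0.27. Isg20, an interferon-stimulated exonuclease, read 6.13, 5.88, 6.12, 6.68 and 6.08 on day 10 and 6.82, 6.93 and 7.96 on day 17, without overlap, a difference of 0.97 ± 0.22. Ube2l6, the enzyme that conjugates the interferon-induced modifier ISG15, read 5.86, 6.09, 6.43, 6.70 and 6.08 on day 10 and 6.62, 7.11 and 7.89 on day 17, a difference of 0.94 ± 0.22. In all 5 genes, Alas2 and Slc4a1 included, the highest mouse of day 10 was replicate 4 and the highest mouse of day 17 was replicate 3. Without day 17 replicate 3 the differences were 1.17 (Alas2), 0.85 (Slc4a1), 0.97 (Tent5c), 0.81 (Isg20) and 0.80 (Ube2l6), and without day 10 replicate 4 they were 1.58, 1.35, 1.38, 1.10 and 1.06. The mean of the red cell list ran from 4.05 to 4.62 on day 10, from 4.49 to 5.37 on day 17 and from 3.52 to 4.08 in controls. Of 14 markers of circulating white cells, 13 lay below background, and their list mean ran from 3.24 to 3.47 on day 10 and from 3.29 to 3.50 on day 17. The part of blood held in the tissue in the differences of Tent5c, Isg20 and Ube2l6 was not tested.

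Genes for protein folding had lower means on day 17. Heat shock proteins are chaperones of the cytosol and mitochondria, induced through heat shock factor 1, while the unfolded protein response raises the chaperones of the endoplasmic reticulum. In the heat shock list 15 of 18 members had the lower mean on day 17, where 56.5% of all genes did, and 9 of them had an unadjusted p below 0.05, against 5.22% of all genes, with a median difference of -0.13 against -0.01 over all genes. In the unfolded protein response list the counts were 17 of 18 and 6, and the median was -0.11. Leaving out single mice moved the first count between 5 (without day 10 replicate 5) and 11 (without day 17 replicate 6), and the second between 4 (without day 10 replicate 5) and 8.

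Promoter sequence is shown for 4 of these genes, because it holds letters that match the elements known to bind the regulators of both responses. Each line gives 100 bases 5′ to 3′ on the gene's strand from RefSeq (GRCm38.p6), with the element in capitals; positions are distances upstream of the annotated start, and promoters span 250 bases before to 50 after it. Hspe1, the mitochondrial chaperonin partner of Hspd1, lies at chr1:55088015-55088114 (+ strand) and holds 2 overlapping heat shock elements, the farther from 77 to 89 bases upstream. Its difference was -0.09 ± 0.05. The same bases fall in the promoter of Hspd1 on the other strand (chr1:55087883-55088182). Dnajc3 (chr14:118937786-118937885, + strand), Calr (chr8:84847035-84847134, - strand) and Creld2 (chr15:88819479-88819578, + strand) hold an endoplasmic reticulum stress element from 87 to 105, from 144 to 162 and from 108 to 126 bases upstream.
Hspe1: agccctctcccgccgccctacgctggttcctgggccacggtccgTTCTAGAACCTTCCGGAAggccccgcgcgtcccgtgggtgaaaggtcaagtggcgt
Dnajc3: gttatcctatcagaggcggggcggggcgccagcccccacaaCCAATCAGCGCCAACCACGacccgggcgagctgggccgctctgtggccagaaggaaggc
Calr: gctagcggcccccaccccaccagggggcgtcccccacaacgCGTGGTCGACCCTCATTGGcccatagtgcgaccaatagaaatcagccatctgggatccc
Creld2: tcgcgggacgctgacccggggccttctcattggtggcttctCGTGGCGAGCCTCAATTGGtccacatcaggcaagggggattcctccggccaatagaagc

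The heat shock element was searched on both strands as 3 units, GAA, TTC and GAA, with any 2 bases between neighbours. It was found in 4 of the 15 heat shock genes with a promoter in the table (Chordc1, Hspd1, Hspe1 and Hsph1) and in 0.662% of 27025 genes. The endoplasmic reticulum stress element was searched on both strands as CCAAT and CCACG with any 9 bases between them. It was found in 8 of the 16 unfolded protein response genes with a promoter (Calr, Canx, Creld2, Dnajc3, Hsp90b1, Hspa5, Pdia6 and Syvn1) and in 0.137% of all genes. Among genes with these elements, Hspe1, Canx, Hsp90b1, Hspa5 and Syvn1 were not at the unadjusted threshold for day 17 against day 10. The sterol regulatory element, TCACNCCAC on either strand, was found in 1 of the 16 cholesterol genes with a promoter (Hmgcs1) and in 1.44% of all genes. The interferon-stimulated response element, GGAA and GAAACT with any 2 bases between them, was found in 1 of 30 interferon-stimulated genes (Stat2) and in 0.174% of all genes. Several spellings of each element were tried and these were kept after their matches had been seen, so the counts describe the promoters and are no test.

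Dnajc3 (p58IPK, an endoplasmic reticulum co-chaperone that also restrains the kinase PERK; probe set 10417013) had the smallest p among these genes. It read 8.18, 8.09, 8.08, 8.07 and 8.08 on day 10 and 7.82, 7.86 and 7.98 on day 17, without overlap, a difference of -0.21 ± 0.04 (adjusted p 0.179 by limma). Sdf2l1, a partner of the chaperone BiP, read 7.45, 7.27, 7.55, 7.15 and 7.44 on day 10 and 6.72, 6.88 and 7.13 on day 17, also without overlap, a difference of -0.47 ± 0.13. Calr (calreticulin, a calcium-binding lectin chaperone) read 10.01, 10.06, 10.18, 9.97 and 10.17 on day 10 and 9.80, 9.90 and 9.95 on day 17, without overlap, a difference of -0.19 ± 0.05. Pdia6 (-0.23), a protein disulfide isomerase, Creld2 (-0.19) and Dnajb11 (-0.13), a co-chaperone of BiP, completed the 6 genes at the unadjusted threshold.

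Among the cytosolic chaperones, Fkbp4, an immunophilin of the steroid receptor complex, read 8.52, 8.30, 8.42, 8.33 and 8.57 on day 10 and 7.99, 8.14 and 8.29 on day 17, without overlap, a difference of -0.28 ± 0.08. Dnajb1, the main HSP40 co-chaperone, read 7.42, 7.50, 7.52, 7.39 and 7.60 on day 10 and 6.93, 7.14 and 7.47 on day 17, a difference of -0.32 ± 0.09. Chordc1, a co-chaperone of HSP90, read 8.27, 8.41, 8.79, 8.40 and 8.64 on day 10 and 7.96, 8.04 and 8.48 on day 17, a difference of -0.39 ± 0.11. In Dnajb1 and Chordc1 the highest day 17 mouse was replicate 6, and it was the only one inside the day 10 range. The other 6 members at the unadjusted threshold were Ahsa1 (-0.21), Hsph1 (-0.24), Hspa4l (-0.18), Stip1 (-0.17), Hspd1 (-0.13) and Hsp90aa1 (-0.12).

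The same mouse stood out among the cold-inducible RNA-binding proteins, which rise as temperature falls in cultured cells and in brain. Rbm3 read 9.91, 9.81, 9.84, 10.41 and 9.72 on day 10 and 10.48, 10.71, 10.71, 10.83, 10.73 and 9.97 on day 17, where the last is replicate 6. Cirbp read 8.40, 8.16, 8.02, 8.37 and 8.05 on day 10 and 8.60, 8.62, 8.74, 8.75, 8.68 and 8.11 on day 17, again with replicate 6 at the day 10 level. The other 5 mice of day 17 lay above every day 10 mouse in both genes. The differences were 0.63 ± 0.16 for Rbm3 (adjusted p 0.284 by limma) and 0.38 ± 0.11 for Cirbp (adjusted p 0.329). Without day 17 replicate 6 they were 0.75 ± 0.14 and 0.48 ± 0.09, with adjusted p of 0.0457 and 0.0485 by limma, and those of Dnajb1 and Chordc1 were -0.39 ± 0.08 and -0.46 ± 0.10. The means of Rbm3 and Cirbp lay above those of the controls by 0.47 ± 0.17 and 0.25 ± 0.12 on day 10 and by 1.10 ± 0.17 and 0.63 ± 0.11 on day 17. Body temperature was not analysed here.

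**Figure D3:**
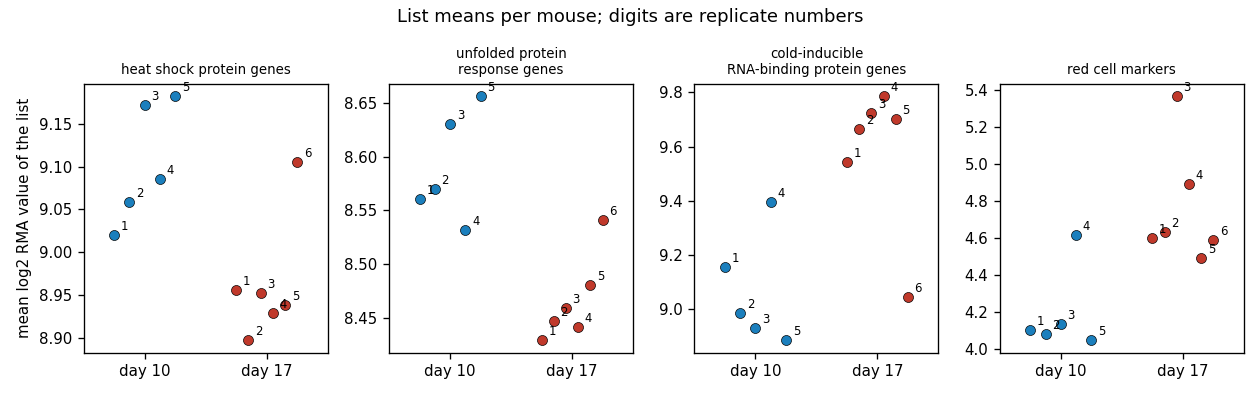
The mean log2 RMA value of 4 gene lists is drawn for each mouse of day 10 and day 17, and the digits are replicate numbers. Replicate 6 of day 17 lies among the day 10 mice for the heat shock (upper end 9.11), unfolded protein response (upper end 8.54) and cold-inducible (lower end 9.04) lists. Replicates 4 of day 10 and 3 of day 17 lead their groups in the red cell list.

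Genes of lipid synthesis also had lower means on day 17. In the cholesterol list, 18 of 20 members had the lower mean (56.5% of all genes did), 7 of them at the unadjusted threshold (5.22% of all genes), with a median of -0.12. In the fatty acid list, 12 of 14 had the lower mean, 7 at the threshold, with a median of -0.11. Cyp51, the lanosterol demethylase, read 7.85, 7.52, 7.78, 7.79 and 7.81 on day 10 and 7.40, 7.52 and 7.57 on day 17, where only day 10 replicate 2 lay in the day 17 range, a difference of -0.24 ± 0.06 (adjusted p 0.290 by limma). Scd1, the stearoyl-CoA desaturase, read 10.45, 10.42, 10.55, 10.45 and 10.42 on day 10 and 10.17, 10.31 and 10.41 on day 17, without overlap, a difference of -0.15 ± 0.06. Msmo1 (-0.21), Fdps (-0.20) and Fads1 (-0.15), which act in sterol synthesis and fatty acid desaturation, lay on the same side. Against them, Srebf1, the transcription factor that drives fatty acid synthesis genes, had the higher mean: 6.64, 6.90, 7.08, 6.94 and 6.69 on day 10 and 6.98, 7.17 and 7.26 on day 17, a difference of 0.30 ± 0.08 (adjusted p 0.294). Lss (0.14) was the other member on the higher side at the unadjusted threshold. Both lists lay below the controls by more on day 17 (medians -0.25 and -0.18) than on day 10 (-0.11 and -0.06), 2 comparisons that share the controls. The count of 7 in the cholesterol list was 3 without day 10 replicate 1 and 4 without day 17 replicate 4 or replicate 5, while in the fatty acid list it stayed between 6 and 7 whichever mouse was left out.

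Several inflammatory genes that lay above the controls on day 10 lay closer to them on day 17. In the list of cytokine and acute-phase genes 27 of 37 members had the lower mean on day 17 (56.5% of all genes), 5 of them at the unadjusted threshold (5.22% of all genes), and 0 were at it on the higher side (3.08%), with a median of -0.06; 14 of the 37 lay below background. The median of this list lay 0.15 above the controls on day 10 and 0.13 above them on day 17, with the controls shared. As a whole the list thus lay little closer to them. Cxcl9 and Cxcl10 are chemokines that interferons induce and that call in T cells. Cxcl10 read 4.75, 5.28, 5.01, 5.29 and 4.65 on day 10 and 4.27, 4.51 and 4.84 on day 17, a difference of -0.48 ± 0.16 (adjusted p 0.437 by limma), and Cxcl9 differed by -0.55 ± 0.21 (adjusted p 0.506), with overlap in both. Cxcl10 lay 0.93 ± 0.17 above the controls on day 10 and 0.45 ± 0.17 above them on day 17, and Cxcl9 lay 1.21 ± 0.23 and 0.65 ± 0.22 above them. Ptgs2, the inducible cyclooxygenase that makes the prostaglandins of fever, read 6.13, 6.01, 5.34, 6.09 and 5.88 on day 10 and 5.18, 5.48 and 5.54 on day 17. Its difference was -0.45 ± 0.18, and only day 10 replicate 3 lay in the day 17 range. Tnf (-0.22) and Il6st (-0.13), the gp130 receptor chain of the IL-6 family, were the other members at the threshold. The count of 5 was 2 without day 10 replicate 4, and 3 without day 10 replicate 1 or day 17 replicate 2.

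Interferon-stimulated genes divided. Of 35 members, 27 had the lower mean on day 17, 5 at the unadjusted threshold (5.22% of all genes), and 8 the higher mean, 3 at the threshold (3.08%), with a median of -0.10. The 5 lower genes were Oas2, a sensor of double-stranded RNA, the guanylate-binding protein Gbp2 (-0.43), the membrane protein Ifitm3 (-0.37), the immunoproteasome subunit Psmb8 (-0.28) and the class I antigen H2-K1 (-0.25). Oas2 read 4.04, 4.46, 4.34, 4.19 and 4.34 on day 10 and 3.76, 3.96 and 4.15 on day 17, a difference of -0.32 ± 0.09 (adjusted p 0.317 by limma), and lay 0.61 ± 0.09 above the controls on day 10 and 0.29 ± 0.09 above them on day 17. The 3 higher genes were Isg20, Ube2l6 and Rsad2 (0.86), the first 2 of which were highest in the same mice as Alas2 and Slc4a1, as given above. The median of the list lay 0.42 above the controls on day 10 and 0.23 above them on day 17, with the controls shared. The count of 3 higher genes stayed at 3 whichever mouse was left out. The count of 5 lower genes was 2 without day 10 replicate 4 and 3 without day 10 replicate 2, day 17 replicate 1 or day 17 replicate 6. It was 8 without day 10 replicate 3 or day 17 replicate 5 and 9 without day 17 replicate 3.

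**Figure D4:**
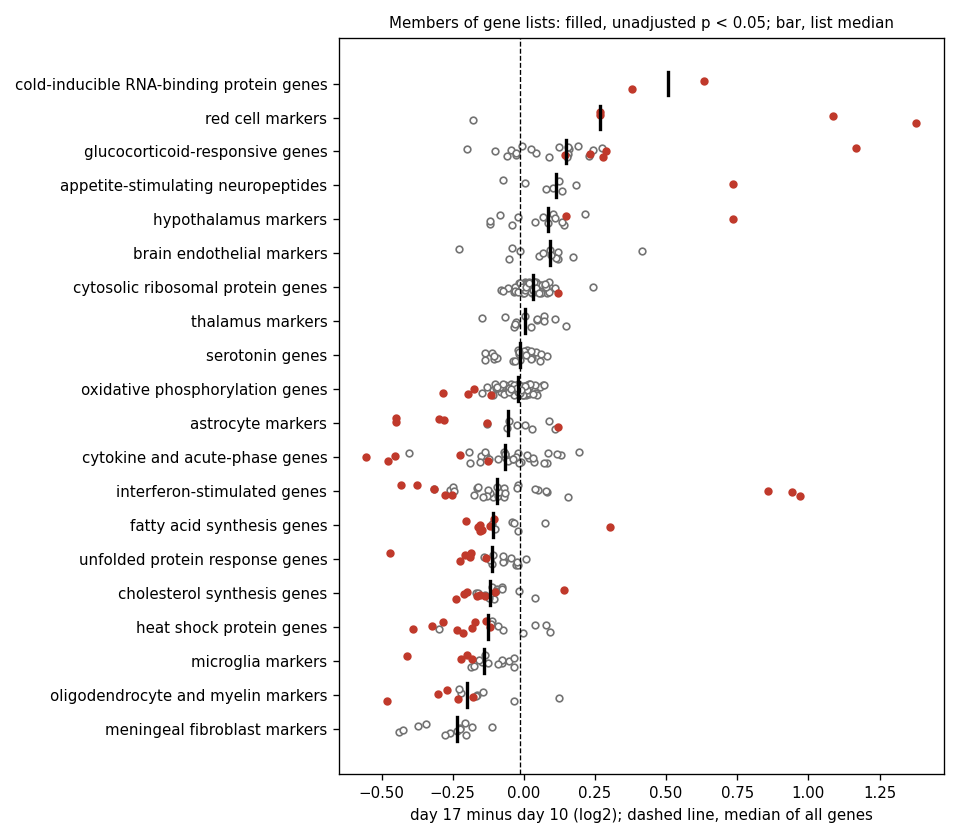
Each point is a gene of 1 of 20 lists, placed by its log2 difference of day 17 minus day 10; filled points have an unadjusted p below 0.05, bars mark the list medians and the dashed line the median of all genes (-0.01). The heat shock, unfolded protein response, cholesterol and fatty acid lists have their medians to the left of it (-0.13, -0.11, -0.12 and -0.11), and the cold-inducible and red cell lists to the right (0.51 and 0.27).

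Targets of glucocorticoids, the adrenal stress hormones, had higher means more often than lower ones. Of 24 members, 17 had the higher mean on day 17 (43.5% of all genes did), 5 of them at the unadjusted threshold (3.08% of all genes), and 0 were at it on the lower side (5.22%), with a median of 0.15. Sgk1, a kinase gene that glucocorticoids induce, read 8.46, 8.45, 8.12, 8.57 and 8.04 on day 10 and 8.55, 8.59 and 8.77 on day 17, a difference of 0.29 ± 0.11 (adjusted p 0.506 by limma). Nfkbia (0.23), the inhibitor of NF-κB, Arrdc2 (0.28), the clock gene Per1 (0.14) and Tent5c, described with the red cell genes, made up the rest. The count of 5 was 1 without day 10 replicate 5, 2 without day 17 replicate 5, and 3 without day 10 replicate 2, day 17 replicate 1 or day 17 replicate 3. Among the samples with the earlier accessions, which held day 10 replicates 1 and 2 and day 17 replicates 1 to 3, the median of the list was 0.01, and among those with the later ones it was 0.19. The labels do not say whether these are batches.

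Immediate early genes, which neurons switch on with activity, were split. Of 20 members, 3 were higher at the unadjusted threshold (3.08% of all genes) and 5 lower (5.22%). The count of 5 was 2 without day 17 replicate 4 and 3 without day 10 replicate 2, and the count of 3 was 2 without day 10 replicate 3 or day 17 replicate 5. The list median was -0.13 in the earlier run of accessions and 0.06 in the later one. Nr4a1, an orphan nuclear receptor, read 6.41, 6.79, 6.95, 6.60 and 6.37 on day 10 and 7.14, 7.21 and 7.40 on day 17, without overlap, a difference of 0.61 ± 0.15 (adjusted p 0.290 by limma). Against the controls it lay at -0.64 ± 0.17 on day 10 and at -0.03 ± 0.16 on day 17. Npas4 (0.41), a transcription factor specific to active neurons, and Btg2 (0.36) were also higher. The lower genes were Nr4a3 (-0.28), of the same receptor family as Nr4a1, Egr3 (-0.29), Fosb (-0.24), Jun (-0.17) and Homer1 (-0.15).

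Markers of microglia and oligodendrocytes mostly had lower means on day 17, and those of astrocytes were mixed. All 16 microglia markers measured were on the lower side (56.5% of all genes), 4 of them at the unadjusted threshold (5.22% of all genes), with a median of -0.14. Fcrls (probe set 10499189), a receptor-like gene of resting microglia, read 6.13, 5.89, 5.96, 5.99 and 6.19 on day 10 and 5.48, 5.59 and 5.87 on day 17, without overlap, a difference of -0.41 ± 0.08 (adjusted p 0.179 by limma). Relative to the controls Fcrls lay at -0.28 ± 0.09 on day 10 and at -0.70 ± 0.09 on day 17. Selplg (-0.22), Tmem119 (-0.20), another gene of resting microglia, and C1qa (-0.18), of the complement, were the others. The list mean ran from 6.16 to 6.40 on day 10, from 6.00 to 6.23 on day 17 and from 6.24 to 6.28 in controls. Without day 10 replicate 1, day 10 replicate 2 or day 17 replicate 4, the count of 4 was 2 each time, and without day 10 replicate 3 it was 9.

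Of 14 astrocyte markers, 9 had the lower mean, a share near the 56.5% of all genes. At the unadjusted threshold 5 were lower, against 5.22% of all genes, and this count was 5 whichever mouse was left out. Aqp4, the water channel of astrocyte end-feet, read 9.28, 8.77, 8.74, 8.83 and 8.76 on day 10 and 8.26, 8.41 and 8.61 on day 17, without overlap, a difference of -0.45 ± 0.10 (adjusted p 0.217 by limma). Fabp7, a fatty acid binding protein of astrocytes and radial glia, read 10.71, 10.86, 10.82, 10.65 and 10.89 on day 10 and 10.14, 10.27 and 10.78 on day 17, and the only day 17 mouse in the day 10 range was again replicate 6. Its difference was -0.45 ± 0.12. Gfap (-0.30), the intermediate filament of reactive astrocytes, Ncan (-0.28), a matrix proteoglycan, and Gja1 (-0.13), connexin 43, completed the 5, and Fgfr3 (0.12) was the member on the higher side at the threshold. The list median was -0.05. The list mean ran from 9.37 to 9.44 on day 10 and from 9.24 to 9.34 on day 17, without overlap, and from 9.32 to 9.44 in controls.

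Of 12 oligodendrocyte and myelin markers, 11 had the lower mean (56.5% of all genes) and 5 were at the unadjusted threshold (5.22%), with a median of -0.20. Ugt8a, which makes the galactolipids of myelin, read 8.87, 8.77, 8.50, 8.78 and 8.80 on day 10 and 8.02, 8.20 and 8.57 on day 17. Its difference was -0.48 ± 0.12 (adjusted p 0.294 by limma), with overlap. Fa2h (-0.30), which hydroxylates the fatty acids of those lipids, Mag (-0.27), Mog (-0.23) and Cnp (-0.18) were the others. This count rested on few mice: without day 10 replicate 1 or without day 10 replicate 2 it was 1, and without day 10 replicate 3 or day 17 replicate 1 it was 9. It was 2 without day 10 replicate 4, day 17 replicate 3 or day 17 replicate 6, and 3 without day 17 replicate 2. The list mean ran from 8.68 to 9.21 on day 10 and from 8.70 to 9.08 on day 17, ranges that overlap almost wholly. Among 13 pan-neuronal markers 9 had the lower mean (56.5% of all genes) and 0 were at the threshold in either direction (8.30%). Their list mean ran from 9.99 to 10.09 on day 10 and from 9.95 to 10.09 on day 17. Among 13 meningeal fibroblast markers all had the lower mean (56.5% of all genes), 0 at the threshold in either direction (8.30%), with a median of -0.24. The mean of this list spread widely, from 5.57 to 6.97 on day 10 and from 5.34 to 6.79 on day 17. The part of dissection in the glial differences was not tested.

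Feeding genes are the ones for which the hypothalamus of tumour-bearing animals is mostly studied. Npy (probe set 10538247), the strongest known stimulant of feeding among them, read 8.43, 8.66, 9.48, 8.89 and 8.44 on day 10 and 9.12, 9.67, 9.31, 10.00, 9.75 and 9.23 on day 17. The groups overlapped through day 10 replicate 3 alone. The difference was 0.73 ± 0.23, a ratio of 1.66, with a 95% interval from 0.26 to 1.21, an adjusted p of 0.430 by limma over all genes and an exact two-sided permutation p of 0.0195 (0.0779 adjusted over the 8 genes so tested; the smallest p that 5 against 6 mice allow is 0.00216). Without day 10 replicate 3 the difference was 0.91. Npy lay 0.54 ± 0.25 above the controls on day 10 and 1.27 ± 0.24 on day 17. The controls themselves spread, at 7.94, 8.16, 7.73 and 9.13. The highest control lay above every day 10 mouse but replicate 3, and just above the lowest day 17 mouse. The list of appetite-stimulating peptides had 7 of 8 members with the higher mean (43.5% of all genes), with a median of 0.11. Npy alone was at the unadjusted threshold (3.08% of all genes). Agrp and Pmch were not analysed here.

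Among the appetite-reducing peptides the differences were small. Pomc read 5.48, 5.41, 5.81, 4.84 and 5.25 on day 10 and 5.04, 5.26 and 5.68 on day 17, a difference of -0.04 with a 95% interval from -0.44 to 0.36 and an exact permutation p of 0.807. Cartpt differed by -0.03 (95% interval -0.30 to 0.24, exact permutation p 0.842). Both intervals leave room for moderate differences in either direction. Against the control mean of 6.01, Pomc lay at -0.65 ± 0.22 on day 10 and at -0.69 ± 0.21 on day 17. Of 16 appetite-reducing peptides, 9 had the higher mean and 7 the lower (43.5% and 56.5% of all genes). Nucb2 (0.16), the precursor of nesfatin-1, and Prlh (-0.21) were at the unadjusted threshold on either side (3.08% and 5.22% of all genes). Leaving out single mice moved these counts between 0 and 2 on the higher side and between 0 and 1 on the lower side. Hcrt, the orexin precursor of the lateral hypothalamus, differed by 0.10 (95% interval -0.31 to 0.52, exact permutation p 0.848), Nts (neurotensin) by -0.07 (-0.33 to 0.18, exact permutation p 0.582) and Crh, below background in all 11 mice, by 0.16 (-0.05 to 0.37, exact permutation p 0.162).

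Ghrh, which drives growth hormone release, read 7.23, 7.42, 7.74, 7.46 and 7.22 on day 10 and 7.56, 7.82 and 7.96 on day 17. The difference was 0.36 ± 0.12 (95% interval 0.12 to 0.60), with an exact permutation p of 0.0108 (0.0779 adjusted over the 8). It was 0.44 without day 10 replicate 3, the mouse that also overlapped in Npy. On day 10 that mouse had the highest mean of the hypothalamus markers (7.53), a list that holds Npy, and the lowest of the myelin markers (8.68). The part of dissection in the differences of Npy and Ghrh was not tested. Ghsr, the receptor for ghrelin, read 5.99, 5.97, 6.05, 6.01 and 5.82 on day 10 and 5.98, 6.15 and 6.25 on day 17, a difference of 0.16 ± 0.08 with an exact permutation p of 0.0368 (0.0981 adjusted). Of 24 receptors for feeding peptides and hormones, 13 had the higher and 11 the lower mean (43.5% and 56.5% of all genes). Mc3r (0.31), a melanocortin receptor, Insr (0.16), the insulin receptor, and Ghsr were higher at the unadjusted threshold (3.08% of all genes). This count of 3 was 0 without day 10 replicate 1 or day 17 replicate 2, and 1 without day 10 replicate 5 or day 17 replicate 3. Of 13 neuroendocrine and reproductive peptides, 9 had the higher mean (43.5% of all genes), with Ghrh and Tac2 (0.23), which encodes neurokinin B, at the threshold (3.08%). Without day 10 replicate 1 the count of 2 was 1.

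**Figure D5:**
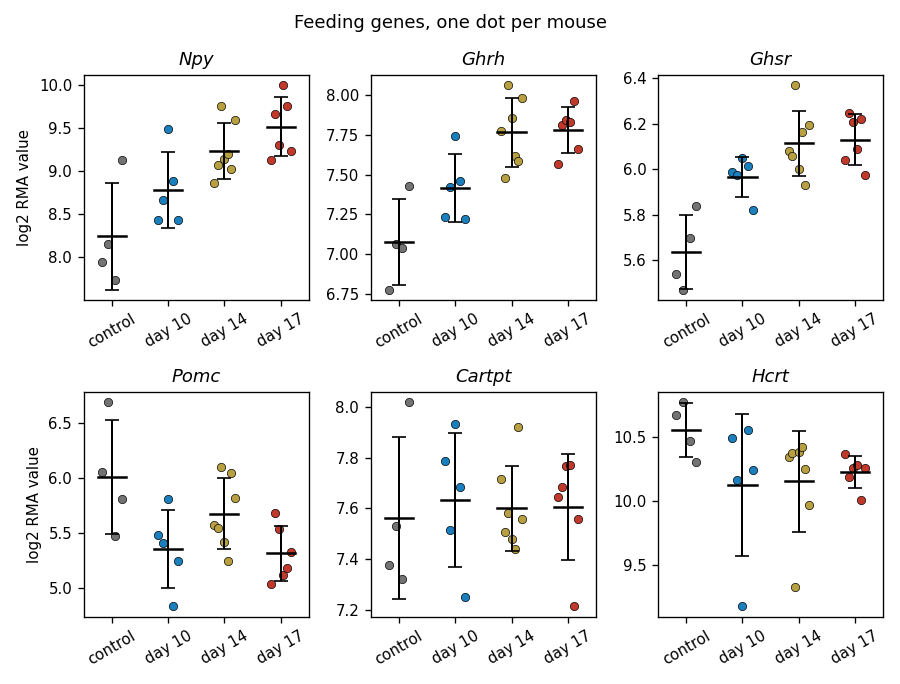
Dots are single mice and bars the mean ± SD of the log2 RMA value in controls of day 14 (n = 4) and tumour-bearing mice of days 10 (n = 5), 14 (n = 7) and 17 (n = 6). Npy and Ghrh have higher means on day 17 than on day 10 (by 0.73 and 0.36), while Pomc, Cartpt and Hcrt differ by -0.04, -0.03 and 0.10.

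Serotonin is known to restrain feeding. Of 23 genes for its synthesis, transport and receptors, 11 had the higher and 12 the lower mean (43.5% and 56.5% of all genes). At the unadjusted threshold there were 0 in either direction (8.30% of all genes), and the median was -0.01. Htr2c, the receptor through which serotonin acts on Pomc neurons, differed by -0.01 (95% interval -0.23 to 0.20) and Htr7 by 0.06 (-0.10 to 0.22). Tph2 (0.06) and Slc6a4 (-0.02), the synthesis enzyme and transporter of serotonin neurons, whose cell bodies lie in the brainstem, were below background. The widest 95% interval bounds over the 23 genes were -0.52 and 0.32, so larger differences than these were outside the intervals of every gene.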

How the data were processed

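Per the submitters' processing notes, the authors made the deposited log2 table with RMA, which corrects background, normalizes arrays and summarizes probes; its version and the annotation build are not given in the sources used here. RNA with an integrity number above 8 was used, per the labels' protocols. Of 35556 probe sets, the platform annotation paired 21218 with 1 gene, 1881 with several and 12457 with none; 21185 matched a RefSeq Entrez identifier and 0 symbols changed. Each of 18820 genes was represented by its brightest probe set, averaged over 22 arrays (1386 had more than 1), with no filter on low values. Probe sets of 1184 odorant and pheromone receptors gave the background, their 95th percentile, 3.87; 13793 genes had a mean above it.

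In R 4.3.3, limma 3.58.1 fitted 4 group means to the 22 arrays (eBayes, 18 residual degrees of freedom), two-sided, with Benjamini-Hochberg adjustment over all genes, after the code was tested on simulated data. The other 11 arrays enter the difference only through the spread and the choice of probe set. The mice are separate animals, and their number limits the precision. The rule for named genes took the 15 genes with the smallest p on each side (without predicted genes, small RNAs and chemosensory receptors). It also took the 3 members of smallest p in each of 36 lists, and a fixed set of feeding, cold-inducible and serotonin genes. Not all of these 135 genes, and not all 36 lists, are described in the text. Further list members are named where they complete a count and were chosen after their values were seen. The comparison, its genes and lists were chosen with earlier results of these data known. Feeding genes were also tested with exact permutation tests. Alternatives covered the threshold, arrays fitted, variance model, array weights, scaling, probe set choice, replicate numbers, runs of accessions, thalamus markers and single mice.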

Additional observations from a re-analysis of the deposited data

Results flagged for a closer look

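In 25 of 270 sets of values of a named gene in 1 group, the highest or lowest mouse lay far from the nearest other one; chance flags about 1 in 20. The value given is the gap to the nearest mouse as a share of the group's range. On day 10, replicate 4 was high in Slc4a1 (0.903) and Rbm3 (0.729). Replicate 1 was high in Aqp4 (0.836) and Dnajc3 (0.824) and low in Insr (0.855) and Rpl12 (0.741), a ribosomal protein gene. Replicate 2 was low in Cyp51 (0.787), replicate 5 was high in Nts (0.843), and replicate 3 was high in Scd1 (0.715) and Clic6 (0.784), a choroid plexus marker, and low in Hcrt (0.718), Flt1 (0.78), an endothelial receptor, and Ugt8a (0.737).

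On day 17, replicate 6 was low in Cirbp (0.773) and Crh (0.774) and high in Chordc1 (0.639). Replicate 3 was high in Slc4a1 (0.685), Mc3r (0.676) and F5 (0.759) and low in Ptgs2 (0.71). Replicate 1 was high in Mag (0.642) and Tph2 (0.752) and low in Qrfp (0.626), a feeding peptide. Replicate 2 was high in Nr4a1 (0.652) and replicate 5 in Dio2 (0.638), the enzyme that activates thyroid hormone.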

How the results depend on the processing

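Of the 135 named genes, 12 had another sign in at least 1 alternative, Pomc, Cartpt, Hcrt, Nts, Tph2, Slc6a4, Htr2c and Htr7 among them, and 0 of these 12 had an unadjusted p below 0.05; the other named genes kept their sign in every alternative. The count of genes past the adjusted threshold, 0 here, was 1 at an adjusted p below 0.10 (Oacyl) and 2 with array weights (Erdr1 and Oacyl). It ran from 0 to 12 when single mice were left out: 2 without day 10 replicate 4, 12 without day 17 replicate 6, and 0 without any other. It was 0 with a term for the run of accessions, in either run alone, with only the 11 arrays, and with the thalamus markers as a covariate. The unadjusted counts of 579 higher and 983 lower genes ran from 445 to 746 and from 645 to 1324 without single mice, 645 being without day 10 replicate 1; in the earlier run alone the higher count was 363. Centring each array on its median gave 467 higher and 1239 lower, with the median of all genes at -0.02. The counts of the other 2 contrasts and of genes without overlap under these settings were added after seeing the data. Day 14 against day 10 gave 0 in place of 1 in the earlier run and in the later run alone, and day 17 against day 14 gave 1 in place of 0 without day 17 replicate 2. By exact test, the Npy difference ran from 0.64 to 0.91 and that of Ghrh from 0.31 to 0.44 without single mice, both largest without day 10 replicate 3, where both passed the adjusted threshold of 0.05. Whether replicate numbers pair the samples was not settled. Same-numbered mice correlated, in their deviations from the group means, at 0.112, 0.140, -0.193, 0.225 and 0.127. The pair at -0.193 came from different runs of accessions and the other pairs from the same run. Over all pairs of a day 10 and a day 17 mouse the median was 0.083 within a run and -0.075 across runs. A replicate block gave 2 genes (Oacyl and Arhgef33). In that fit day 17 replicate 6, which has no day 10 partner, drops out of the difference, and leaving it out alone gave 12, so the 2 cannot be put down to the block. The spread between mice and the signal over background limit what the smaller differences can show: 14 of 37 cytokine genes and 13 of 14 white cell markers lay below background. The cause of none of these shifts was tested.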

Other observations

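Of 16 clock genes, 11 had the higher mean on day 17 (43.5% of all genes), 3 were higher at the unadjusted threshold (3.08% of all genes) and 1 was lower (5.22%). Cry1, a repressor of the clock, read 5.79, 5.90, 5.92, 5.82 and 5.83 on day 10 and 5.88, 6.12 and 6.44 (lowest, median, highest) on day 17, a difference of 0.27 ± 0.08 (adjusted p 0.407 by limma). Cry2 (0.17) and Per1 (0.14) were also higher, and Nfil3, a repressor that works against the activator Dbp, differed by -0.25 ± 0.08; the hour of dissection is not given in the labels used here. The 2 deiodinases that activate and inactivate thyroid hormone differed in opposite directions, Dio2 by 0.25 ± 0.10 and Dio3 by -0.25 ± 0.10 (adjusted p 0.570 and 0.515 by limma), and Dio3 was below background in every mouse. Each was 1 of 8 thyroid hormone handling genes, of which 4 had the higher and 4 the lower mean (43.5% and 56.5% of all genes).

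Of 68 oxidative phosphorylation genes, 48 had the lower mean (56.5% of all genes did), with a median of -0.02. At the unadjusted threshold 4 were lower, a share near the 5.22% of all genes, and without day 17 replicate 2 this count was 2. Ndufa2, a subunit of complex I, had the smallest p (-0.28 ± 0.08, adjusted p 0.323 by limma). Of 67 ribosomal protein genes, 51 had the higher mean (43.5% of all genes), 1 of them (Rps13, 0.12) at the threshold (3.08%), with a median of 0.03. Both medians are smaller than the median SE of a gene, 0.08. Of 13 tanycyte and ependymal markers, 10 had the lower mean on day 17 and 3 the higher (56.5% and 43.5% of all genes). At the unadjusted threshold 3 were lower (5.22% of all genes) and 1 was higher (3.08%). The lower ones were Tmem212 (-0.26 ± 0.08), Ccdc153 (-0.23 ± 0.11) and Foxj1 (-0.16), genes of ciliated cells, and the higher one was Adm (0.37 ± 0.17), the adrenomedullin precursor. The count of 3 lower markers was 1 without day 10 replicate 2 or 3 and without day 17 replicate 1, 2 or 4, and the count of 1 higher marker was 0 without day 10 replicate 5 and without day 17 replicate 2, 3 or 5. Of 13 brain endothelial markers 9 had the higher mean (43.5% of all genes) and 0 were at the threshold in either direction (8.30%).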
